A study of Homo sapiens with 5 samples.

Results

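Of 10 hypoxia-induced genes that act outside glycolysis, 9 were measured in Hodgkin lymphoma cells exposed to the kinase inhibitor LY294002. The genes were chosen by name: HIF1A, VEGFA, ADM, BNIP3, BNIP3L, NDRG1, EGLN1, P4HA1, BHLHE40 and CA9. CA9, a carbonic anhydrase of the cell surface, had no probe set listed under its symbol. Each of the other 9 was represented by its only probe set, among 7713 genes in all. The cells were KMH2, an established Hodgkin lymphoma line of B cell origin, kept for 16 hours in medium with 30 uM LY294002 (2 arrays) or with the solvent DMSO as control (3 arrays). LY294002 is best known for blocking phosphoinositide 3-kinase (PI3K), and it acts on other proteins too, mTOR among them. The labels name no culture at low oxygen and no genetic change in either group. Nothing in them tells whether replicates were separate cultures, so the p-values rest on array-to-array spread that may be only technical. In RNA from whole cultures, less RNA per cell and fewer cells that express a gene cannot be told apart.

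Hypoxia-inducible factors (HIFs) are transcription factors made of an oxygen-regulated alpha subunit, such as that encoded by HIF1A, and a constant partner. In oxygenated cells, prolyl hydroxylases such as the EGLN1 product mark the alpha subunit for destruction through VHL, so that its protein level is set largely after transcription. When oxygen falls the factor accumulates and binds DNA at sites with the core ACGTG or GCGTG, next to genes of glycolysis, blood vessel growth, mitochondrial removal and collagen modification. PI3K and mTOR signalling is also known to raise production of the HIF1A protein. The arrays measured RNA only.

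The median log2 value of an array was 6.26 to 6.29. Over all probe sets, pairs of control arrays correlated with Pearson's r from 0.996 to 0.998, the LY294002 pair with 0.996, and pairs of 1 array from each treatment with 0.989 to 0.992. Of 14 measured markers of Hodgkin or B cells, 10 lay above the median of all probe sets, which is not a detection call. Among them were CD40 (10.25 to 10.57 over the 5 arrays) and TNFRSF8, the gene of CD30 (7.39 to 8.49). Of the 14, 1 passed the limma threshold, higher with LY294002, and 6 had an unadjusted p under 0.05. Both LY294002 arrays lay below all DMSO arrays in 8 of them (13.4% of all genes) and above in 3 (16.2% of all genes). CD79B, a chain of the B cell receptor that Hodgkin cells often lose, stood at 5.17 to 5.19. Myeloid markers lay above that median in 0 of 5 genes and fibroblast or endothelial markers in 1 of 7. Of 8 measured T and NK cell markers 7 did, CD3D and CD4 among them, and all 8 log2 differences were below 0, with 0 past the limma threshold and 1 at an unadjusted p under 0.05. Their summed log2 value was 57.5 to 57.8 with DMSO and 56.0 to 57.0 with LY294002. Their part in the results was not tested. One control array, DMSO replicate 1, stood apart for several of the hypoxia-induced genes. The comparison with and without that array was fixed together with the choice of the genes, and the differences of the 9 measured genes are given both ways.

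Promoter sequences are shown for 4 of the genes, because they carry the same HIF core letters while the estimated differences between treatments vary in sign. The estimates for BNIP3 and P4HA1 were below 0, that for BHLHE40 was above 0, and that for EGLN1 was close to 0. None passed the threshold (limma adjusted p = 0.394, 0.47, 0.256 and 0.95 in that order). Without DMSO replicate 1, P4HA1 was at -0.12 and EGLN1 at 0.13, so a contrast in direction is not established. The sequences are the 250 bases before the start of each gene, from RefSeq on GRCh38.p14, written 5′ to 3′ on the strand of the gene. BNIP3 is at chr10:131981924-131982173 on the minus strand, P4HA1 at chr10:73096867-73097116 on the minus strand, BHLHE40 at chr3:4979187-4979436 on the plus strand and EGLN1 at chr1:231422288-231422537 on the minus strand. Capitals mark every ACGTG or GCGTG on either strand, so that a match on the opposite strand reads CACGT or CACGC.
BNIP3: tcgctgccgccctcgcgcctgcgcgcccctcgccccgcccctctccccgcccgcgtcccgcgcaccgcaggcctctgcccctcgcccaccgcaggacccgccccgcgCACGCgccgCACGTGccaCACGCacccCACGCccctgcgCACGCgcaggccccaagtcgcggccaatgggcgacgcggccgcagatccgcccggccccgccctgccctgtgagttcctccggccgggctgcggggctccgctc
P4HA1: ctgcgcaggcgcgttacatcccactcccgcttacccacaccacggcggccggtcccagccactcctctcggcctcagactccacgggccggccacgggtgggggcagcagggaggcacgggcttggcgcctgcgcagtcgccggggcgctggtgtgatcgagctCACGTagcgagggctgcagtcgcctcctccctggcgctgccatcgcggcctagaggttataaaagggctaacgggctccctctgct
BHLHE40: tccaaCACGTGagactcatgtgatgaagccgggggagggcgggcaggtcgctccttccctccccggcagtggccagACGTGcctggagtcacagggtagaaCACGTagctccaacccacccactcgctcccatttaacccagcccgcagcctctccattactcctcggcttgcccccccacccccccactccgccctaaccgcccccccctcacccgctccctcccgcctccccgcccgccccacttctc
EGLN1: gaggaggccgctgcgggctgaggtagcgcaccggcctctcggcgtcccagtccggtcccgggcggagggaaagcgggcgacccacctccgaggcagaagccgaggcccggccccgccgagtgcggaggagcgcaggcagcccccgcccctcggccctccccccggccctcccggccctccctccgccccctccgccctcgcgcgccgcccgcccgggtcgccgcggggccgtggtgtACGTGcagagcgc

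The BNIP3 window held 2 matches to ACGTG and 4 to GCGTG, all 6 of them between positions -143 and -100 relative to the start. In the BHLHE40 window there were 4 matches to ACGTG. In both, 2 of the ACGTG matches are the 2 strands of 1 CACGTG, the palindromic E-box that MYC and BHLHE40 itself bind. P4HA1 and EGLN1 had 1 match to ACGTG each, without CACGTG. Over all 35116 RefSeq windows of that length, 18.5% held ACGTG, 32.2% GCGTG and 6.34% CACGTG. A match is a description of the letters and not a measured binding site. Of the 10 genes, 7 had a window, of which 5 held ACGTG and 3 held GCGTG.

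LY294002 was compared with DMSO by limma over all 8746 probe sets, with Benjamini-Hochberg adjustment at 0.05. Across all genes, 70 of 7713 passed, or 0.908% (0.609% higher and 0.298% lower with LY294002). Of the 9 hypoxia-induced genes 0 passed in limma, and 3 (HIF1A, VEGFA and BHLHE40) had an unadjusted p under 0.05, a level that 17.1% of all genes reached. In 5 of the 9 both LY294002 arrays lay outside the range of the DMSO arrays, above it for HIF1A and BHLHE40 and below it for VEGFA, BNIP3 and P4HA1. The same held for 29.6% of all genes, 16.2% above and 13.4% below. The 9 differences thus ran in both directions, with 4 above 0 and 5 below, and their median of -0.07 on the log2 scale was close to the median of all genes, -0.01. Their median size was 0.31, and that of all genes 0.08. Of the 9, 7 had a mean above the median of all probe sets. All genes include the dim ones, where a change can be compressed, and were not matched for brightness. Without DMSO replicate 1 the median of the 9 was -0.10 and their median size 0.14, against -0.01 and 0.08 for all genes. No test of these gaps was made.

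**Figure D1:**
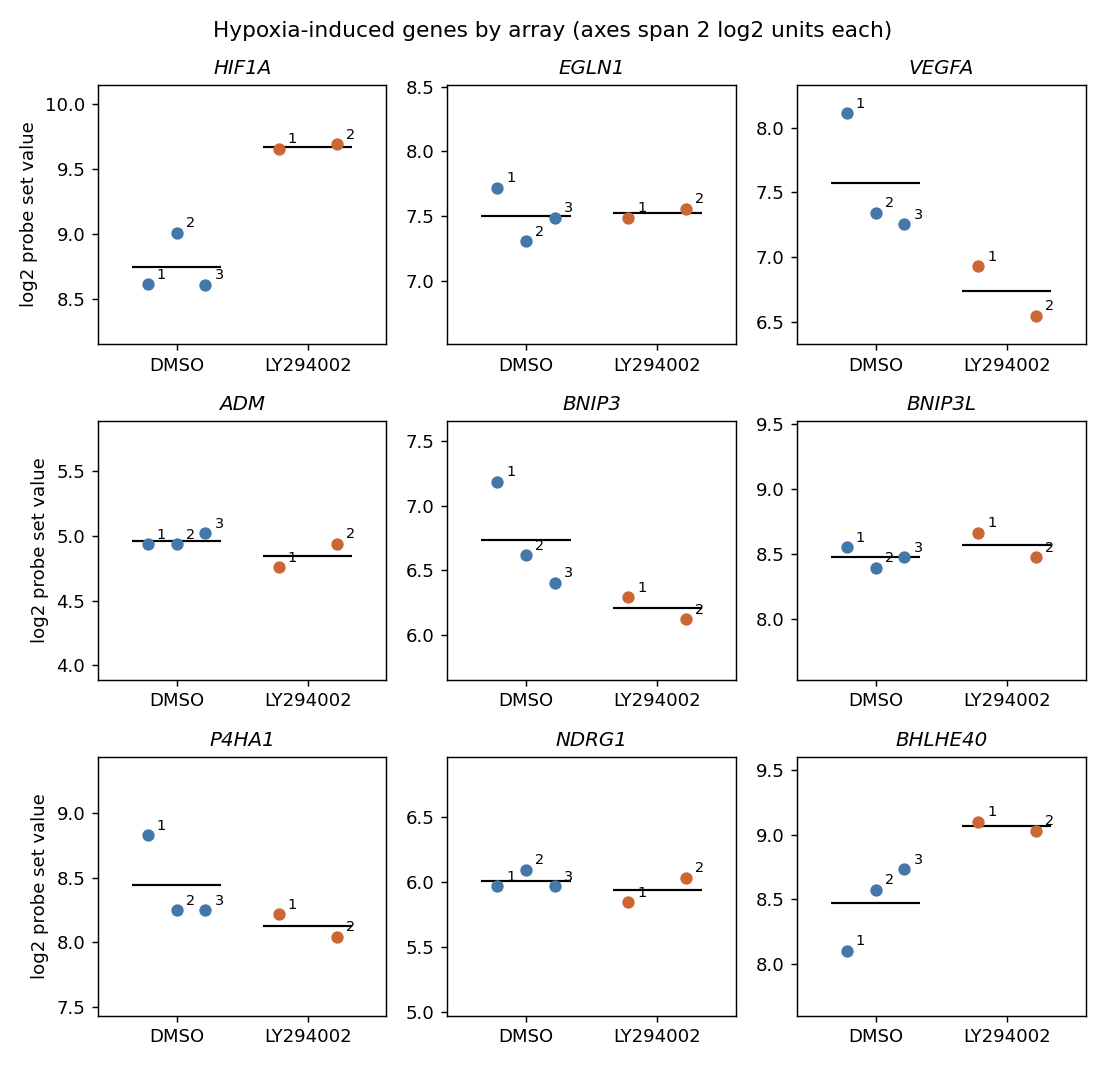
Log2 probe set value (y axis, each panel spanning 2 log2 units) of 9 hypoxia-induced genes on 3 DMSO arrays and 2 LY294002 arrays; digits are replicate numbers and black lines group means. HIF1A and BHLHE40 were higher on both LY294002 arrays, while VEGFA, BNIP3 and P4HA1 were lower there and highest on DMSO replicate 1.

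HIF1A, the gene of the oxygen-regulated subunit, had the largest difference of the 9. Its log2 value was 8.61, 9.01 and 8.61 on DMSO replicates 1, 2 and 3, and 9.66 and 9.69 on LY294002 replicates 1 and 2. The lower of the LY294002 arrays was above the highest DMSO array. The means differed 1.91-fold, by log2 0.93 ± 0.14 (SE, 3 and 2 arrays), with a 95% interval of 0.55 to 1.31 and a limma adjusted p of 0.0765. That value is on the border of the threshold and the call depended on the setting: the adjusted p was 0.0281 after quantile normalization, 0.0499 after median centring and 0.0389 without the dimmest 40% of probe sets. The difference without DMSO replicate 1 was 0.87 ± 0.16 (limma adjusted p = 0.175). With any 1 array left out it stayed between 0.86 and 1.07, at adjusted p-values of 0.083 to 0.274. The RefSeq gene table names 1 pseudogene after HIF1A and 1 after EGLN1, whose RNA, where transcribed, the probe sets could also bind. The probe sets of VEGFA, BNIP3L, NDRG1, P4HA1 and BHLHE40 are named as shared by several transcripts.

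EGLN1, the prolyl hydroxylase that targets HIF1A and is itself induced by HIF, differed little between the groups. Its values were 7.72, 7.31 and 7.49 on the DMSO arrays and 7.49 and 7.56 on the LY294002 arrays. The LY294002 arrays lay inside the DMSO range. The difference was log2 0.02 ± 0.13 with a 95% interval of -0.33 to 0.37 (limma adjusted p = 0.95), or 0.13 ± 0.08 without DMSO replicate 1 (0.545). Its sign turned after quantile normalization (-0.037), without DMSO replicate 2 (-0.081) and without LY294002 replicate 2 (-0.017). The name of its probe set marks it as one that can bind unrelated transcripts, so the value is uncertain.

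Of the 15 measured genes for HIF subunits, oxygen-sensing enzymes and their partners, which include HIF1A and EGLN1, 0 passed in limma and 3 had an unadjusted p under 0.05. Besides HIF1A these were SIAH2, a ubiquitin ligase that acts on prolyl hydroxylases (0.35 ± 0.05, limma adjusted p = 0.059), and RBX1, a ring subunit of the VHL ligase (0.33 ± 0.05, 0.0767). All 3 were higher on both LY294002 arrays than on any DMSO array, as were 16.2% of all genes. Genes picked for a small p tend to be placed so. For EPAS1, the gene of the alternative alpha subunit HIF-2 alpha, the arrays read 4.91, 4.94 and 4.94 with DMSO and 4.92 and 5.01 with LY294002. The range of the DMSO arrays is narrow there, and the probe set was dim, below the lower quartile of all probe sets (5.24). The constant partner ARNT stood at 5.16 to 5.20 on all 5 arrays, also below that quartile, so that its narrow range says little about its RNA level. The list's median difference was 0.05.

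VEGFA, the growth factor that drives formation of blood vessels, was lower with LY294002. Its log2 value was 8.11, 7.34 and 7.26 on DMSO replicates 1, 2 and 3, and 6.93 and 6.55 on LY294002 replicates 1 and 2. DMSO replicate 1 was the highest array by a wide margin, and both LY294002 arrays were below all controls. The difference was log2 -0.83 ± 0.31, a level 1.78-fold higher in the controls, with a 95% interval of -1.66 to -0.0048 and a limma adjusted p of 0.292. Without DMSO replicate 1 it was -0.56 ± 0.16, or 1.47-fold (limma adjusted p = 0.287). Both the estimate and its standard error were smaller without that array.

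ADM encodes adrenomedullin, a vasodilator peptide that hypoxia induces in many cell types. It read 4.93, 4.93 and 5.02 on the DMSO arrays and 4.76 and 4.94 on the LY294002 arrays, and the groups overlapped. This was the only one of the 9 genes below the lower quartile of all probe sets, where a change in RNA can be compressed. The difference was -0.11 ± 0.07 (95% interval -0.29 to 0.07, limma adjusted p = 0.443), or -0.13 ± 0.08 without DMSO replicate 1 (0.545). The receptors and relatives of both ligands gave 0 of 12 measured genes past the limma threshold and 3 with an unadjusted p under 0.05, with a median difference of -0.09 and 10 of 12 below 0. Those with the smallest p were RAMP1, a partner subunit of the adrenomedullin receptor family (-0.31 ± 0.04, limma adjusted p = 0.0539), CALCRL, the receptor that pairs with RAMP proteins (-0.21 ± 0.05, 0.152), and VEGFB, a VEGF relative (-0.20 ± 0.07, 0.268). In each of these 3 both LY294002 arrays lay below all DMSO arrays, as in 13.4% of all genes. Genes picked for a small p tend to be placed so.

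BNIP3 and BNIP3L are related mitochondrial outer membrane proteins that recruit autophagosomes to mitochondria, and both are classical HIF targets. BNIP3 read 7.19, 6.62 and 6.41 on DMSO replicates 1, 2 and 3 and 6.29 and 6.13 on the LY294002 arrays. As for VEGFA, DMSO replicate 1 was the highest, and both LY294002 arrays were below the lowest control. The difference was -0.53 ± 0.25 (95% interval -1.20 to 0.14, limma adjusted p = 0.394) and -0.30 ± 0.11 without DMSO replicate 1 (0.364), so leaving out that array moved it by more than 1.5 times. The table of genes names 46 pseudogenes after BNIP3, whose RNA, where transcribed, the probe set could also bind. Probe sequences were not compared with them. BNIP3L read 8.55, 8.39 and 8.48 with DMSO and 8.66 and 8.48 with LY294002, with overlapping groups and a difference of 0.10 ± 0.08 (95% interval -0.11 to 0.31, limma adjusted p = 0.526), or 0.14 ± 0.09 without DMSO replicate 1. The paralogs thus had estimates of opposite sign, and the difference between them was not tested.

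Of 11 measured receptors and adaptors of mitophagy, the removal of mitochondria in which BNIP3 acts, 3 rose in limma and 0 fell. The log2 difference was above 0 in 9 of them and below 0 in 2, with a median of 0.25. SQSTM1, the receptor p62 that links ubiquitinated cargo to autophagosomes, rose from 10.10 to 10.27 on the DMSO arrays to 10.84 and 10.91 with LY294002 (0.70 ± 0.06, limma adjusted p = 0.034). NBR1, a related cargo receptor, rose by 0.76 ± 0.08 (0.0419), and MAP1LC3B, the autophagosome membrane protein they bind, by 0.64 ± 0.06 (0.0419). These 3 differences were, without DMSO replicate 1, 0.74, 0.82 and 0.60, and 0 of the 3 passed; nor did any of them pass with another array left out. Across all genes only 4, or 0.0519%, passed in that fit, while 1165 had an unadjusted p under 0.05.

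P4HA1 encodes a catalytic subunit of the prolyl hydroxylase that stabilises collagen. It read 8.83, 8.25 and 8.25 on DMSO replicates 1, 2 and 3, and 8.22 and 8.04 with LY294002. The values of DMSO replicates 2 and 3 were identical to the last deposited digit, as were pairs of values within a group in 38.0% of all probe sets, which makes the spread look small. Both LY294002 arrays were below the controls, replicate 1 by little. The difference was -0.31 ± 0.21 (95% interval -0.87 to 0.25, limma adjusted p = 0.47). Without DMSO replicate 1 it was -0.12 ± 0.07 (0.545), smaller by more than 1.5 times. Among 10 measured genes of collagen hydroxylation and folding 0 passed in limma, 1 had an unadjusted p under 0.05 and the median was 0.04. The smallest p-values were those of P3H4, a partner of collagen-modifying enzymes (0.14 ± 0.03, limma adjusted p = 0.136), SERPINH1, the collagen chaperone HSP47 (-0.13 ± 0.05, 0.325), and P4HA2, the paralog of P4HA1 (-0.10 ± 0.06, 0.43).

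NDRG1, a stress-responsive gene whose product slows growth and spread of several tumour types, stood at 5.97, 6.09 and 5.97 with DMSO and at 5.84 and 6.03 with LY294002. The groups overlapped, and the probe set was below the median of all probe sets (6.27). Its difference was -0.07 ± 0.08 (95% interval -0.28 to 0.13, limma adjusted p = 0.607), or -0.10 ± 0.09 without DMSO replicate 1. Among 16 measured relatives of NDRG1 and CA9, 0 passed in limma, 2 had an unadjusted p under 0.05 and the median was -0.05. CA1, a carbonic anhydrase of red cells, differed by -0.23 ± 0.06 (limma adjusted p = 0.198), NDRG2 by -0.16 ± 0.05 (0.237) and CA5A, a mitochondrial carbonic anhydrase, by 0.07 ± 0.04 (0.445). CA12, like CA9 a HIF target at the cell surface, read 5.12, 4.84 and 4.88 with DMSO and 4.82 and 4.88 with LY294002. These values were below the lower quartile of all probe sets (5.24).

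BHLHE40, a transcriptional repressor that responds to hypoxia and damps the circadian clock, was higher with LY294002. Its log2 value was 8.10, 8.58 and 8.73 on DMSO replicates 1, 2 and 3, and 9.10 and 9.03 on LY294002 replicates 1 and 2. Both LY294002 arrays were above the controls, and DMSO replicate 1 was here the lowest array. The means differed 1.51-fold, by 0.60 ± 0.20 (95% interval 0.06 to 1.13, limma adjusted p = 0.256). Leaving out DMSO replicate 1 gave 0.41 ± 0.07 (1.33-fold, limma adjusted p = 0.168). Of 11 measured clock genes 0 passed in limma and 3 had an unadjusted p under 0.05, all 3 higher on both LY294002 arrays: RORA, a nuclear receptor that activates BMAL1 and is also known as a HIF target (0.93 ± 0.15, limma adjusted p = 0.0809), BMAL1, the central activator of the clock (0.42 ± 0.12, 0.191), and NFIL3, a repressor of clock output (0.53 ± 0.15, 0.201). RORA read 5.33, 5.31 and 5.01 with DMSO and 5.98 and 6.32 with LY294002, and its difference without DMSO replicate 1 was 0.99.

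**Figure D2:**
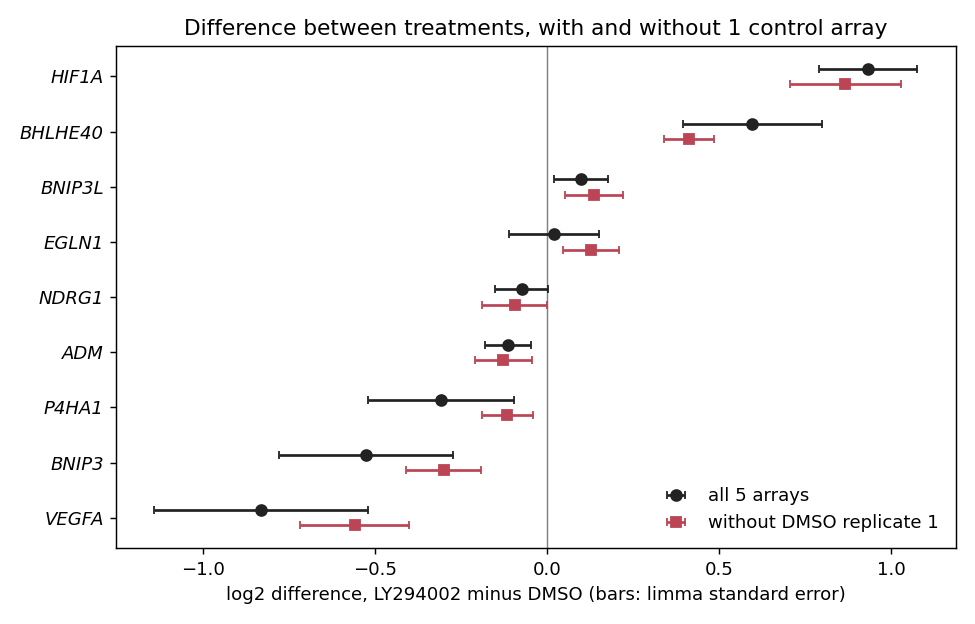
Log2 difference between LY294002 and DMSO (x axis) for the 9 genes with all 5 arrays (circles) and without DMSO replicate 1 (squares); bars are limma standard errors. Leaving out that array brought VEGFA from -0.83 to -0.56, BNIP3 from -0.53 to -0.30 and P4HA1 from -0.31 to -0.12, and HIF1A from 0.93 to 0.87.

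DMSO replicate 1 stood apart within the control group alone. VEGFA was 0.81 higher on it than on the mean of the other DMSO arrays, against a gap of 0.09 between those 2. Only 4 of 7713 genes, VEGFA included, had a gap of that size in either direction, or 0.0519%. For BNIP3 the gap was 0.67, which 11 genes reached, for P4HA1 0.58 (36 genes), for BHLHE40 -0.55 (42 genes) and for EGLN1 0.32 (215 genes). HIF1A was 0.20 lower on DMSO replicate 1 than on the mean of the others, with 0.40 between those 2, so that DMSO replicate 2 was the control array apart from the others. The median size of the gap was 0.32 over the 9 genes and 0.06 over all genes, which were not matched to the 9 for brightness. In VEGFA, BNIP3, P4HA1 and EGLN1, 4 of 9 genes, DMSO replicate 1 was the highest of all 5 arrays, compared with 15.4% of all genes. The genes were chosen with earlier results of these data known, and leaving out DMSO replicate 1 was fixed with that choice. These counts are thus a description and not a test. Without DMSO replicate 1, the LY294002 arrays lay outside the range of the remaining controls in the same 5 genes, 2 above and 3 below. For these 5 that was fixed in advance, because leaving out an array cannot widen the range of the controls. The share over all genes without that array was 38.8% (18.6% above and 20.2% below).

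**Figure D3:**
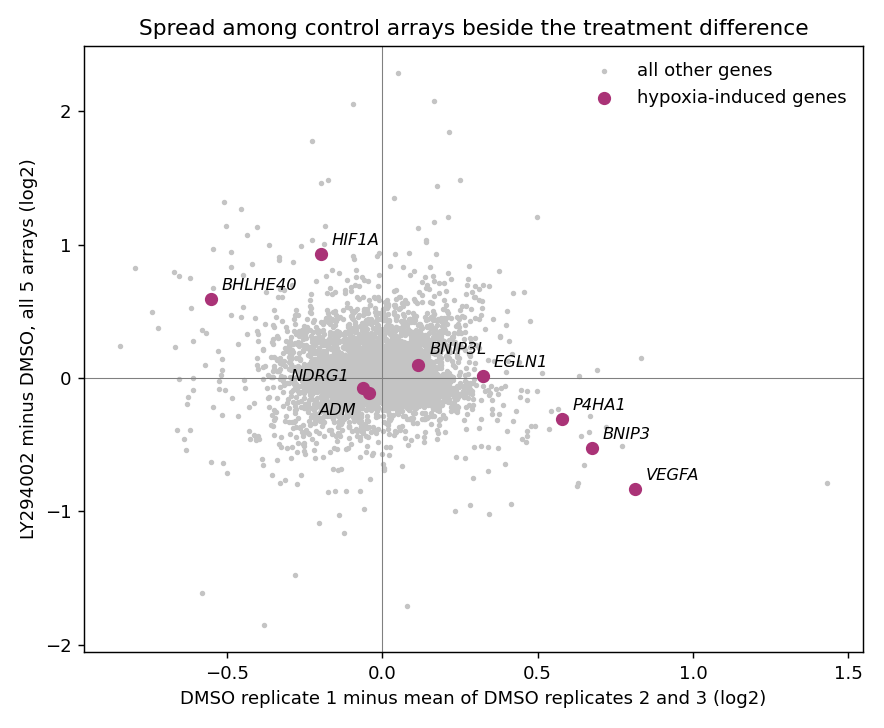
DMSO replicate 1 minus the mean of DMSO replicates 2 and 3 (x axis, log2) against the difference between LY294002 and DMSO with all 5 arrays (y axis, log2) for the 9 genes and all other genes (grey). VEGFA, BNIP3, P4HA1 and BHLHE40 sit at the edges on the x axis; both axes use DMSO replicate 1, which ties them together by construction.

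Of 26 measured HIF targets outside glycolysis beyond the 9 genes, 0 passed in limma, 4 had an unadjusted p under 0.05 and 16 differences were below 0, with a median of -0.03. Next to RORA the smallest p-values were those of ADORA2B, an adenosine receptor (-0.17 ± 0.04, limma adjusted p = 0.157), and TFRC, the transferrin receptor of iron uptake (-0.22 ± 0.05, 0.158). ANGPTL4 and EPO, which hypoxia induces strongly in other cells, read 5.88 to 5.95 and 4.38 to 4.41 over the 5 arrays. ANGPTL4 lay below the median of all probe sets (6.27) and EPO below their lower quartile (5.24), so that a narrow range says little. The median size of the gap between DMSO replicate 1 and the other DMSO arrays was 0.07 over this list, and the gap reached 0.40 in PNRC1, a nuclear receptor coactivator.

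Of 20 measured glycolytic HIF targets 3 fell in limma and 0 rose. Across all genes, 0.298% fell and 0.609% rose. The log2 difference was below 0 in 17 of the 20 and above 0 in 3, and ran from -0.95 to 0.29. The 3 that fell in limma were LDHA, the lactate dehydrogenase subunit (-0.69 ± 0.03, limma adjusted p = 0.00626), PGAM1, phosphoglycerate mutase (-0.59 ± 0.05, 0.0352), and PGK1, phosphoglycerate kinase (-0.44 ± 0.05, 0.0429). In 12 of the 20 both LY294002 arrays lay below all DMSO arrays, as in 13.4% of all genes, and in 2 they lay above them. Among the 9 genes outside glycolysis they lay below in 3 and above in 2. The median difference was -0.21 with all arrays and also -0.21 without DMSO replicate 1, when 0 of the 20 passed, as with any other array left out. The contrast between glycolytic and other targets was not tested, and both sets share the same DMSO and LY294002 arrays. LDHA read 11.71, 11.69 and 11.72 with DMSO and 11.03 and 11.01 with LY294002, and its control arrays lay close together.

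**Figure D4:**
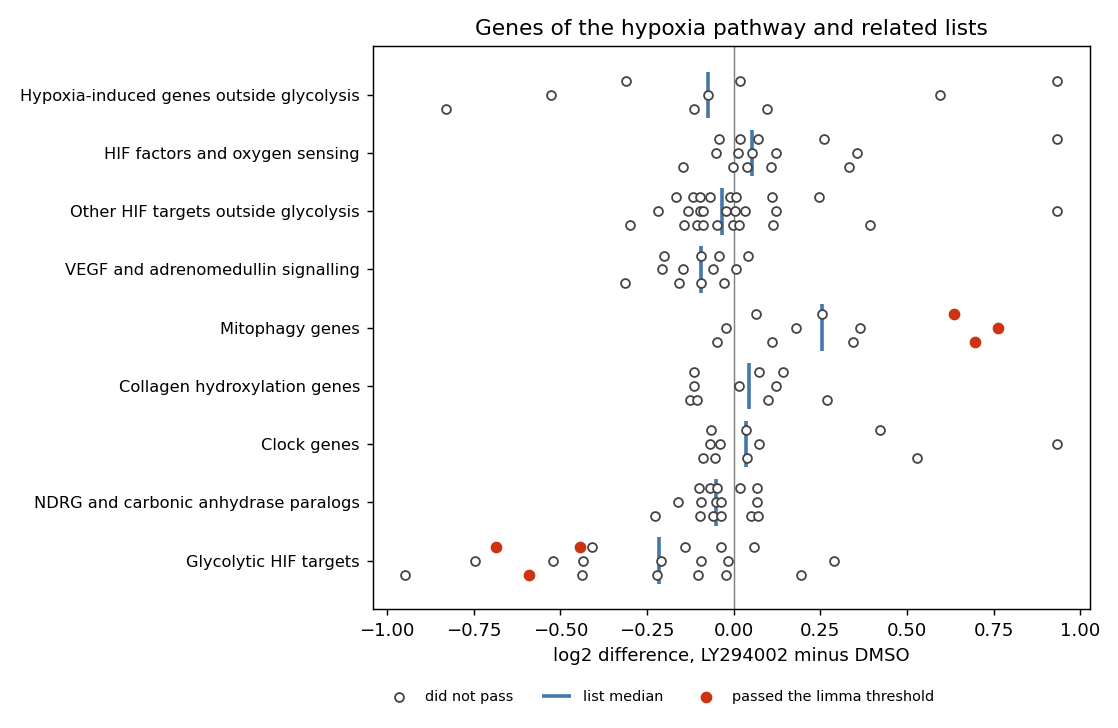
Log2 difference between LY294002 and DMSO (x axis) for each measured gene of the 9 hypoxia-induced genes and of 8 related lists (rows); filled points passed the limma threshold and blue bars are list medians. Filled points appear in 2 rows, 3 mitophagy genes on the right and 3 glycolytic genes on the left.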

How the data were processed

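The table holds 8793 probe sets on 5 arrays. Its values are on a log2 scale as the authors deposited them, and per the submitters' processing notes affy, an R package, produced them. How background, summary and normalization were handled is not given in the sources used here. In the computation here, 47 control probe sets were left out. Symbols came from the platform annotation (7840 probe sets had 1 symbol, 388 several and 518 none, and 7838 of the 7840 matched the RefSeq table). The brightest probe set stood for a gene. The fit was limma 3.58.1 in R 4.3.3, with group as the only term and 3 residual degrees of freedom, tested on simulated data. Figures used matplotlib 3.10.9.

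The genes and the 8 related lists were chosen with earlier results of these data known. Named genes are the 9 measured ones and, per list, those past the threshold or else the 3 smallest p-values. Others (CD40, TNFRSF8, CD79B, CD3D, CD4, EPAS1, ARNT, CA12, ANGPTL4, EPO) were chosen after their values were seen. Tried as alternatives were median centring, quantile normalization, removal of the dimmest 40%, a robust prior with intensity trend, array weights, the replicate block, averaging of probe sets per gene, and each array left out. The number of arrays limits the precision.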

Additional observations from a re-analysis of the deposited data

How the results depend on the processing

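Of 107 values of single hypoxia-induced genes under an alternative, 100 kept both sign and side of the threshold. HIF1A passed in 3, so that the count of these genes past the limma threshold was 1 after quantile normalization, median centring or removal of the dimmest 40% of probe sets, a removal that left out ADM. EGLN1 turned to -0.037 after quantile normalization and ranged from -0.081 to 0.13 without 1 array, NDRG1 from -0.17 to 0.021 (above 0 without LY294002 replicate 1), and the median of the 9 from -0.17 to 0.0032, the last without LY294002 replicate 1. In those same settings the 70 genes past the threshold became 299 (quantile normalization, 172 higher and 127 lower, against 47 and 23), 147 (median centring) and 203 (dim probe sets left out), and the 6 of the related lists became 15, 11 and 12. With array weights the counts were 17 and 1. With the replicate block they were 0 and 0, and HIF1A was at 0.86 (limma adjusted p = 0.363). That fit keeps 1 pair for each shared number only. With the block, 4 of the 9 genes had an unadjusted p under 0.05, against 3 in the main fit. Over all genes it was 820 against 1320. Deviations of same-numbered arrays from their group means correlated at 0.0021 and -0.21 over all probe sets. With 2 LY294002 arrays those deviations are mirror images, so the 2 correlations cannot decide whether the numbers mark pairs. Without any 1 array the limma counts ranged from 0 to 4 for all genes (4 without DMSO replicate 1, 0 without each of the other arrays), with 946 to 2085 at an unadjusted p under 0.05, and were 0 to 0 for the related lists (30 to 39) and for the 9 genes (1 to 3). The cause was not tested. A fit without 1 LY294002 array assumes that the remaining one varies like the controls. Without DMSO replicate 1, 0 of the 9 genes passed under any of the alternatives that could be fitted; the replicate block could not be.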

Other observations

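The genes with the widest gap between DMSO replicate 1 and the other DMSO arrays, chosen after their values were seen, give the company in which VEGFA and BNIP3 stood apart. ATF5, a stress-responsive transcription factor, led with 1.43 (9.77 against 8.34 and 8.34). NUP62, a nucleoporin gene, followed with -0.84, and EIF2S3, a subunit of translation initiation factor eIF2, with 0.83. By size VEGFA ranked 4 and BNIP3 11 among all genes. Between them were ASNS, asparagine synthetase (0.77), GARS1, glycyl-tRNA synthetase (0.72), and ATF4, the activator of amino acid stress genes (0.69). TRIB1, a pseudokinase, was lower on that array by 0.80 on the log2 scale (-0.80), the phosphatase gene DUSP2 by 0.74 (-0.74) and the early-response factor KLF10 by 0.72 (-0.72). Without DMSO replicate 1 the difference between LY294002 and DMSO was -0.31 ± 0.16 for ATF5 (limma adjusted p = 0.495) and 0.29 ± 0.04 for ATF4 (0.145).

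Over the 5 arrays, the genes whose values followed the mean of the 9 most closely, among 3856 genes at or above the median brightness, were GLUD1, glutamate dehydrogenase (r = 0.978), ATP2B2, a calcium pump (0.973), LSS and SQLE, enzymes of cholesterol synthesis (0.969 and 0.964), and TRIM27 (0.964). The mean of the 9 was highest on DMSO replicate 1, at 0.13 relative to its mean over the arrays. That mean joins genes that went opposite ways on DMSO replicate 1, such as VEGFA (0.81 against the other DMSO arrays) and BHLHE40 (-0.55). Of the 3856 genes, 13 had an r above 0.95. The correlations are a description of 5 points that share the same arrays.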
